A study of Mus musculus with 9 samples.

Results

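Cd36, Fabp4, Fabp5, Lpl, Gpihbp1, Aqp7, Meox2, Tcf15 and Rbp7 were followed through the cells of the mouse thyroid. They are 9 genes, chosen by name as genes of endothelial fatty acid uptake, out of 52636 genes in the count table by a rule that uses no measured value. The study profiled 9 samples by droplet-based single-cell RNA sequencing, with 10186 cells and 63121420 unique molecular identifiers (UMIs, 1 per captured transcript molecule) under 16 cell labels given by the authors. All animals were male C57BL/6 mice, aged 10 to 12 weeks by the design text and up to 14 weeks by the protocol, and no engineered allele is named. Each had 1 intraperitoneal dose of antibody, and the treatment labels give 7 days for every group. The RW group (3 samples) got 40 mg/kg of an antibody to ragweed, an antigen that mice lack. The aJ1aJ2 group (3 samples) got blocking antibodies to the Notch ligands Jag1 and Jag2, 20 mg/kg each. The aN1aN2 group (3 samples) got antibodies to the receptors Notch1, at 5 mg/kg, and Notch2, at 10 mg/kg. Every sample was a pool of thyroids from 6 mice, and the antibodies acted on the whole animal, not on endothelium alone. Titles carry 3 runs of internal numbers, and the aN1aN2 samples alone make up the last of these runs: receptor blockade and that run cannot be told apart.

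Long-chain fatty acids reach a tissue across its capillary endothelium. Lipoprotein lipase, made by cells of the tissue and held on the luminal side of the capillary by Gpihbp1, releases them from triglyceride-rich particles. Endothelial cells then take them up with the help of the membrane protein Cd36 and bind them in the cytosol with Fabp4 and Fabp5. In heart endothelium the transcription factors Meox2 and Tcf15 act as a pair that drives such genes, and Notch signalling, whose nuclear partner is Rbpj, is known to regulate them there.

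By the GENCODE annotation of GRCm38, Cd36 spans chr5:17781690-17888801 on the minus strand, Fabp4 spans chr3:10204088-10208576 on the minus strand, Fabp5 spans chr3:10012548-10016607 on the plus strand and Lpl spans chr8:68880491-68907448 on the plus strand. Gpihbp1 spans chr15:75596628-75599481 on the plus strand, Aqp7 spans chr4:41033074-41048139 on the minus strand, Meox2 spans chr12:37108540-37179534 on the plus strand, Tcf15 spans chr2:152143561-152149097 on the plus strand and Rbp7 spans chr4:149449687-149454978 on the minus strand. Fabp5l2, a pseudogene copy of Fabp5, had 0 UMIs. RefSeq windows of 250 bases before the start site (GRCm38.p6) were at hand for Aqp7, Rbp7, Cd36 and Meox2, 4 of the 9 genes. The windows of Rbp7 and Cd36 are shown because these genes moved in opposite directions under receptor blockade and both windows hold letters of the Rbpj motif. Motifs were searched on both strands: TGGGAA as the core of the Rbpj motif, CGTGGGAA as its longer form (which contains the core), CAGCTG for an E-box, and the PPAR direct repeat. The Rbp7 window lies on the minus strand at chr4:149454969-149455218, and capitals mark CGTGGGAA, which begins 150 bases before the start. The Cd36 window lies on the minus strand at chr5:17835897-17836146, inside the annotated span of the gene, which has several start sites. Capitals there mark TGGGAA, 43 bases before that start.
Rbp7: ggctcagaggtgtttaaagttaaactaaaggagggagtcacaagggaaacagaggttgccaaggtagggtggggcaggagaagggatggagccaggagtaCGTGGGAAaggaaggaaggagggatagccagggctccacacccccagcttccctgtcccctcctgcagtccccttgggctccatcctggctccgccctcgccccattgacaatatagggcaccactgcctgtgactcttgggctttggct
Cd36: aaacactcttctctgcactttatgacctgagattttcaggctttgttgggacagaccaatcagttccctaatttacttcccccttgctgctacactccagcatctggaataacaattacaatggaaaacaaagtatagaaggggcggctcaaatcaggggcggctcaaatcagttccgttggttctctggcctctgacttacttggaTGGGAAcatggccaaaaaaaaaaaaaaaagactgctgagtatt

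Of 32851 such windows genome-wide, 0.636% held CGTGGGAA and 21.6% held TGGGAA. The Meox2 window, on the plus strand of chromosome 12, held TGGGAA 144 bases before its start, and the Aqp7 windows held neither form. None of the 4 genes' windows held CAGCTG or the PPAR repeat, found in 13.0% and 0.338% of windows. A match of letters is a description of the window and says nothing of binding.

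The 4 labels beginning with EC hold 3423 of the cells (33.6%): EC1 with 1603, EC2 with 409, EC3 with 365 and EC4 with 1046. All 6 endothelial markers (Pecam1, Cdh5, Kdr, Emcn, Egfl7, Tie1) had UMIs in each EC label in each sample with at least 20 of its cells. Their summed level in RW was 11215 to 11776 CPM (UMIs of the summed cells scaled to a common total) in EC1, 5666 to 6529 in EC2, 3031 to 4318 in EC3 and 10999.6 to 11789.7 in EC4. Lymphatic markers stood at 1782 to 3376 CPM in EC3 of RW and at 117 to 137 in EC1. EC4 cells were shallow, with a median of 1045.5 UMIs against 3994 in EC1, 2757 in EC2 and 4624 in EC3. Fat cell markers (8 genes) were near 0 in EC1, at most 3.31 CPM in any sample, and reached 166 CPM in EC2. There 20 of 409 cells (4.89%) held a UMI of a fat cell marker other than Cfd. In EC2 of RW most UMIs of the 8 genes were of Cfd, with 33 in 4 cells, while Adipoq had 0. Samples held 583 to 1805 cells and 3013324 to 11880793 UMIs, and 15 cell barcodes occurred in more than 1 sample. Within EC1, replicates differed beyond counting noise in every pair (chi-square per degree of freedom 1.48 to 6.90). By design each sample counts as its own replicate. The replicate is a pool of mice, and p-values measure the spread between pools.

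In control thyroids 7 of the 9 genes were highest in EC2. There the mean over RW samples with at least 20 cells was 2748 ± 154 CPM (SD, n = 2) for Cd36, 25997 ± 2731 CPM (SD, n = 2) for Fabp4 and 1229 ± 309 CPM (SD, n = 2) for Fabp5. It was 2017 ± 577 CPM (SD, n = 2) for Gpihbp1, 363 ± 16.7 CPM (SD, n = 2) for Aqp7, which encodes a channel for water and glycerol, 303 ± 19.5 CPM (SD, n = 2) for Meox2 and 973 ± 114 CPM (SD, n = 2) for Tcf15. Rbp7, which encodes a cytosolic retinol-binding protein, was highest in EC1 at 951 ± 65.5 CPM (SD, n = 3), followed by EC4 at 599 ± 35.3 CPM (SD, n = 3) and EC2 at 255 ± 233 CPM (SD, n = 2). Lpl was highest in F, the label with fibroblast markers, at 897 ± 60.3 CPM (SD, n = 3), and the range over its samples overlapped that of EC2 at 765 ± 203 CPM (SD, n = 2). UMIs come from transcript ends and are not scaled to length, so levels are compared between labels, not between genes. The labels were made from expression, and the order is a description with no test.

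**Figure D1:**
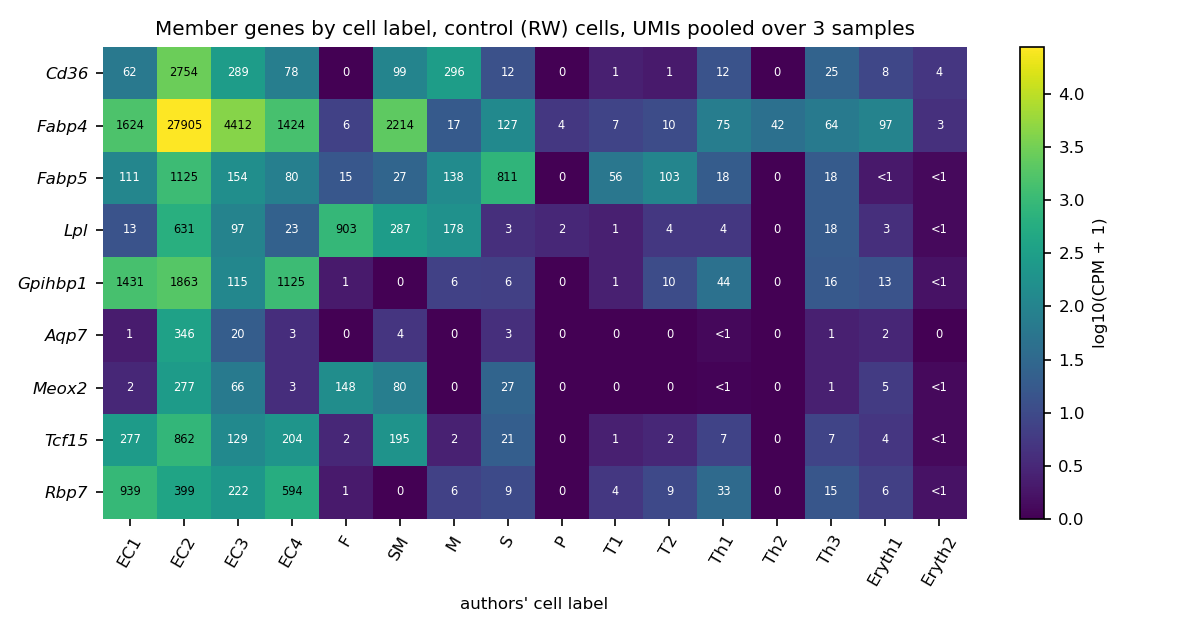
Level of each gene (rows) in each of the authors' cell labels (columns) in RW cells, UMIs pooled over 3 samples; numbers are CPM and colour is log10(CPM + 1). EC2 is highest in 7 rows, EC1 for Rbp7 and F for Lpl.

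Neighbours in that order were not always apart. The order covers the 12 labels with at least 2 RW samples of 20 cells or more. SM, the label with smooth muscle and pericyte markers, had 1 such sample and is not in it, and its UMIs pooled over RW gave 2214 CPM of Fabp4, between EC3 and EC1, and 99.4 CPM of Cd36, between EC3 and EC4. For Cd36, EC3 followed EC2 at 278 ± 135 CPM (SD, n = 3), and its range over samples overlapped that of M, the label with macrophage markers, at 260.1 ± 154 CPM (SD, n = 3). EC4 at 77.3 ± 7.46 CPM (SD, n = 3) and EC1 at 61.6 ± 27.0 CPM (SD, n = 3) overlapped each other. For Fabp4 the order of these labels was EC2, EC3 at 4343 ± 1406 CPM (SD, n = 3), then EC1 at 1601 ± 149 CPM (SD, n = 3) and EC4 at 1409 ± 138 CPM (SD, n = 3), the last pair with overlapping ranges. Fabp5 in EC2 overlapped the label S at 656 ± 611 CPM (SD, n = 2). Gpihbp1 was ordered EC2, EC1 at 1442 ± 145 CPM (SD, n = 3), EC4 at 1135 ± 284 CPM (SD, n = 3) and EC3 at 110.4 ± 58.3 CPM (SD, n = 3), with no overlap between neighbours. The first ranges almost touched: the lowest EC2 sample had 1608.8 CPM and the highest EC1 sample 1608.6. The lowest EC1 sample had 1346.0 CPM and the highest EC4 sample 1341.9. Tcf15 in EC1 at 253 ± 136 CPM (SD, n = 3) overlapped EC4. Aqp7 and Meox2 were close to absent from EC1, with 6 and 11 UMIs in 661 RW cells.

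Of all RW UMIs of a gene, the EC labels held 93.1% for Rbp7, 95.7% for Aqp7, 94.2% for Fabp4, 94.1% for Gpihbp1, 93.1% for Tcf15 and 82.7% for Cd36. They held 63.6% for Fabp5 and 55.5% for Meox2. Lpl stood apart with 29.9% in the EC labels and 53.7% in F. The 9 genes were not 1 pattern within the endothelium: EC2 held 77.1% of Aqp7 UMIs, while the more numerous EC1 cells held 81.4% of Rbp7 and 79.6% of Gpihbp1. With each cell thinned at random to 1000 UMIs, an EC2 cell held a median of 5 of the 9 genes in all 3 groups, and an EC1 cell a median of 2.

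Under receptor blockade Cd36 and Gpihbp1 rose in all 4 EC labels, Lpl rose in EC1 and EC2, and Rbp7 fell in EC1 and EC4. Aqp7, Fabp5, Meox2 and Tcf15 fell in EC2, where they are highest. Under ligand blockade Lpl was the only one of the 9 to pass the test, in EC1 and EC2. UMIs were summed per sample and label and tested with edgeR's quasi-likelihood test, Benjamini-Hochberg adjusted over all genes tested, with a call at an adjusted p under 0.05. A sample entered a label's fit with at least 20 of its cells. This left RW 3 (15 cells) and aJ1aJ2 1 (16 cells) out of EC2 and aJ1aJ2 1 (17 cells) out of EC3. CPM in these comparisons are scaled to the genes that passed the filter on low counts, so they differ from the levels across labels given above for the same cells, which are scaled to all genes.

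In aN1aN2 against RW, 4 genes rose and 1 fell of 7 tested in EC1, where 17.8% of all genes were called. In EC2, 3 rose and 4 fell of 9 tested, with 15.5% of all genes called. In EC3, 2 rose and 1 fell of 9, with 5.91% called, and in EC4 3 rose and 1 fell of 6, with 21.1% called. The share of the 9 genes called was above that of all genes in each label, and the directions were mixed. The set was chosen with earlier results of these data known, so these shares are a description. The median log2 change was 0.54 over those tested of the 9 against -0.011 over all genes tested in EC1, -0.24 over those tested of the 9 against -0.015 over all genes tested in EC2, -0.60 over those tested of the 9 against -0.0038 over all genes tested in EC3 and 0.64 over those tested of the 9 against -0.017 over all genes tested in EC4. Genes not tested for want of counts were Aqp7 and Meox2 in EC1, and Lpl, Aqp7 and Meox2 in EC4.

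In aJ1aJ2 against RW, 1 of 7 was called in EC1, Lpl, beside 1.43% of all genes, and 1 of 9 in EC2, again Lpl, beside 1.91%. In EC3 edgeR called 0 of 9, with 0 at an unadjusted p under 0.05 and 0 by DESeq2, beside 0.0618% of all genes. In EC4 it called 0 of 6, with 1 at an unadjusted p under 0.05 and 0 by DESeq2, beside 0.903%. Compared with each other directly, aN1aN2 was higher than aJ1aJ2 for 4 genes and lower for 1 in EC1 (13.5% of all genes called), higher for 2 and lower for 3 in EC2 (10.5%), higher for 2 in EC3 (1.27%), and higher for 3 and lower for 1 in EC4 (17.2%). Both blockades are compared with the same RW samples.

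**Figure D2:**
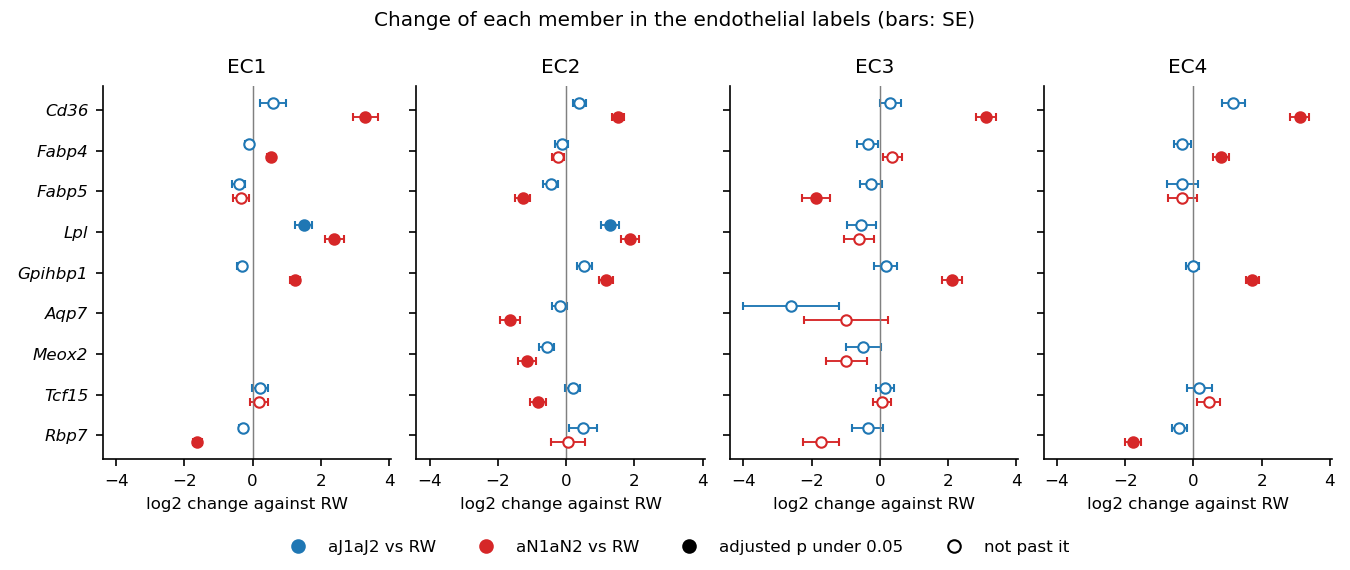
Log2 change of each gene against RW (horizontal axis) with its SE (bars) in EC1, EC2, EC3 and EC4, for aJ1aJ2 (blue) and aN1aN2 (red); filled points have an adjusted p under 0.05. Cd36 and Gpihbp1 are filled to the right in red in every panel, and Lpl is the only filled blue point.

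Cd36, the membrane protein that binds long-chain fatty acids at the cell surface, stood in EC1 at 91.8, 37.0 and 60.4 CPM in RW 1, 2 and 3, 14.7, 169 and 74.7 in aJ1aJ2 1, 3 and 4, and 688, 577 and 621 in aN1aN2 1, 2 and 3. The 3 aN1aN2 samples lay far above all 6 others, which overlapped each other, with aJ1aJ2 1 the lowest of all. Cd36 was 9.90-fold higher in aN1aN2 than in RW (log2 change 3.31, SE 0.37, adjusted p = 1.2e-06). The change in aJ1aJ2 was 0.59 (SE 0.38, adjusted p = 0.59), and it turned with the sample left out: -0.28, adjusted p = 0.95 without aJ1aJ2 3, and 0.95, adjusted p = 0.049 without aJ1aJ2 1. In EC2, where Cd36 is highest, it stood at 3557 and 3195 CPM in RW 1 and 2, 4237 and 4590.2 in aJ1aJ2 3 and 4, and 10408, 10301 and 8366 in aN1aN2 1, 2 and 3. The groups did not overlap, with aJ1aJ2 between the others. The rise in aN1aN2 was 2.87-fold (log2 change 1.52, SE 0.18, adjusted p = 3.5e-05), and the value for aJ1aJ2, 0.39 (SE 0.18, adjusted p = 0.31), did not pass the test.

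In EC3 Cd36 stood at 425, 291 and 152 CPM in RW 1, 2 and 3, 399 and 321 in aJ1aJ2 3 and 4, and 2839, 2659 and 2046 in aN1aN2 1, 2 and 3. RW and aJ1aJ2 overlapped, and every aN1aN2 sample lay above both (log2 change 3.11, SE 0.29, adjusted p = 2.9e-05). In EC4 the values were 88.3, 88.9 and 104 CPM in RW 1, 2 and 3, 166, 275 and 171 in aJ1aJ2 1, 3 and 4, and 851, 638 and 990.2 in aN1aN2 1, 2 and 3, from 6 to 11 UMIs per RW sample. Here the groups were again ordered without overlap, at 3.12 (SE 0.27, adjusted p = 2.8e-09) for aN1aN2 and 1.17 (SE 0.33, adjusted p = 0.095) for aJ1aJ2. Against aJ1aJ2, the log2 difference of Cd36 in aN1aN2 was 2.72 in EC1, 1.14 in EC2, 2.80 in EC3 and 1.95 in EC4, each called. The call of Cd36 in aN1aN2 against RW held in each alternative fit run in the 4 labels.

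Gpihbp1, which carries lipoprotein lipase to the capillary lumen and anchors it there, stood in EC1 at 1645, 1412 and 1377 CPM in RW 1, 2 and 3, 1560.0, 979 and 1031 in aJ1aJ2 1, 3 and 4, and 3589, 3588 and 3326 in aN1aN2 1, 2 and 3. The aN1aN2 samples were close together and above the rest, and RW and aJ1aJ2 overlapped. The rise was 2.37-fold (log2 change 1.24, SE 0.14, adjusted p = 1.5e-06). In aJ1aJ2 the value was -0.32 (SE 0.14, adjusted p = 0.34), and without aJ1aJ2 1 the decrease was called at -0.55, adjusted p = 0.004. In EC2 the values were 2003 and 2936 CPM in RW 1 and 2, 3737 and 3377 in aJ1aJ2 3 and 4, and 5005, 5068 and 6688 in aN1aN2 1, 2 and 3. The 3 groups did not overlap, and aJ1aJ2 lay between RW and aN1aN2. The log2 change was 1.18 (SE 0.21, adjusted p = 0.00098) in aN1aN2 and 0.53 (SE 0.21, adjusted p = 0.23) in aJ1aJ2, which did not pass.

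EC3, with little Gpihbp1 in control cells, stood at 178, 105 and 61.4 CPM in RW 1, 2 and 3, 156 and 103 in aJ1aJ2 3 and 4, and 585, 422 and 531 in aN1aN2 1, 2 and 3 (log2 change 2.12, SE 0.30, adjusted p = 0.00065 in aN1aN2). In EC4 the values were 1650.3, 1497 and 979 CPM in RW 1, 2 and 3, 1684, 1313 and 1158 in aJ1aJ2 1, 3 and 4, and 4438, 4382 and 4827 in aN1aN2 1, 2 and 3 (log2 change 1.73, SE 0.19, adjusted p = 1.2e-07). In both labels aN1aN2 lay above all other samples, and RW and aJ1aJ2 overlapped. Like Cd36, Gpihbp1 kept its call in aN1aN2 against RW in each alternative fit run in the 4 labels. Against aJ1aJ2 the call held in EC1 and EC4, while in EC2 (log2 change 0.65, SE 0.20, adjusted p = 0.048) it was lost in 8 of 15 alternatives, without each aJ1aJ2 and each aN1aN2 sample among them (log2 difference 0.68, 0.54, 0.72, 0.70 and 0.50). In EC3 it was lost in 4 of 16, among them without aJ1aJ2 3 (2.29, adjusted p = 0.1) and without aJ1aJ2 4 (1.69, adjusted p = 0.24).

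Lpl encodes the lipase itself. In EC1 it was scarce, at 9.31, 10.0 and 17.7 CPM in RW 1, 2 and 3, 26.1, 40.2 and 39.7 in aJ1aJ2 1, 3 and 4, and 61.8, 67.0 and 79.6 in aN1aN2 1, 2 and 3, from 13 to 39 UMIs per RW sample. The 3 groups were ordered RW, aJ1aJ2, aN1aN2 without overlap. The log2 change was 1.5 (SE 0.25, adjusted p = 0.0023) in aJ1aJ2 and 2.40 (SE 0.28, adjusted p = 2.2e-06) in aN1aN2, and aN1aN2 exceeded aJ1aJ2 by 0.89 (SE 0.25, adjusted p = 0.021). That difference was lost without aN1aN2 2 (0.91, adjusted p = 0.063) and without aN1aN2 3 (0.79, adjusted p = 0.1). In EC2 Lpl stood at 774 and 1099.7 CPM in RW 1 and 2, 2527 and 1977 in aJ1aJ2 3 and 4, and 2818, 4572 and 2718 in aN1aN2 1, 2 and 3. Again the groups were ordered RW, aJ1aJ2, aN1aN2 without overlap. The log2 change was 1.28 (SE 0.26, adjusted p = 0.019) in aJ1aJ2 and 1.87 (SE 0.26, adjusted p = 0.00014) in aN1aN2. The difference between the blockades was 0.59 (SE 0.23, adjusted p = 0.13). The aJ1aJ2 call was lost in both labels when each sample gave the same number of cells (1.38, adjusted p = 0.11 in EC1 and 0.93, adjusted p = 0.16 in EC2), and in EC2 also with samples of at least 10 cells (1.45, adjusted p = 0.052) and without RW 1 (1.03, adjusted p = 0.16). The EC1 call held with the runs of titles as a block, and the EC2 samples of RW and aJ1aJ2 all came from 1 run. The aN1aN2 calls in both labels held in each alternative.

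In EC3 Lpl stood at 77.8, 135 and 88.1 CPM in RW 1, 2 and 3, 87.5 and 45.9 in aJ1aJ2 3 and 4, and 8.60, 83.1 and 97.8 in aN1aN2 1, 2 and 3. The groups overlapped, and the value for aN1aN2 was -0.60 (SE 0.44, adjusted p = 0.51). A test of the difference between labels, in a fit with a term for each sample, gave a response in EC3 that differed from that in EC1 by -3.06 (SE 0.46, adjusted p = 2.1e-05) in aN1aN2 and by -2.19 (SE 0.43, adjusted p = 0.018) in aJ1aJ2 (log2). The first held in all 11 alternatives and the second in 7 of 11, lost with samples of at least 10 cells and without RW 2 (-1.83, adjusted p = 0.078), aJ1aJ2 3 (-2.71, adjusted p = 0.095) or aJ1aJ2 4 (-1.84, adjusted p = 0.28). In F, with the highest control level, Lpl stood at 908, 1025 and 1003 CPM in RW 1, 2 and 3, 981, 695 and 661 in aJ1aJ2 1, 3 and 4, and 959, 1015 and 933 in aN1aN2 1, 2 and 3. The groups overlapped, and it was not called.

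**Figure D3:**
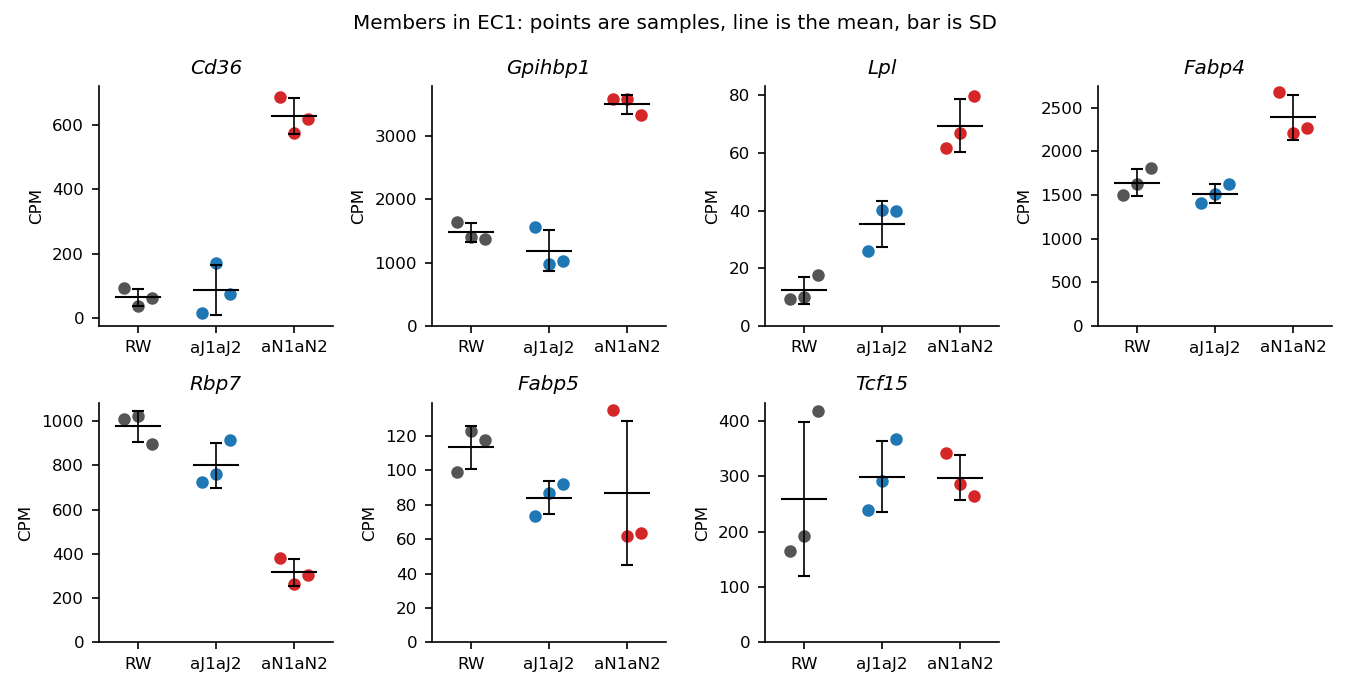
CPM in EC1 by group for the 7 genes with enough counts; each point is a sample, the line is the mean and the bar the SD (n = 3 a group). Cd36, Gpihbp1, Lpl and Fabp4 are highest and Rbp7 lowest in aN1aN2, and Lpl is ordered RW, aJ1aJ2, aN1aN2.

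Fabp4, a cytosolic carrier of fatty acids in capillary endothelium and fat cells, stood in EC1 at 1501, 1619.7 and 1803 CPM in RW 1, 2 and 3, 1403, 1515 and 1628 in aJ1aJ2 1, 3 and 4, and 2683, 2209.7 and 2266 in aN1aN2 1, 2 and 3. The aN1aN2 samples lay above the others, 1.45-fold over RW (log2 change 0.54, SE 0.11, adjusted p = 0.0016). This call was lost when each sample gave the same number of cells (0.41, adjusted p = 0.071). In EC4 it stood at 1694, 1542 and 1883 CPM in RW 1, 2 and 3, 1756, 1588 and 867 in aJ1aJ2 1, 3 and 4, and 3376, 1808 and 3894 in aN1aN2 1, 2 and 3, with aN1aN2 2 inside the RW range (log2 change 0.82, SE 0.23, adjusted p = 0.013), and without aN1aN2 3 the call was lost at 0.62, adjusted p = 0.087. In EC2, with its very high level, the values were 34776 and 29143 CPM in RW 1 and 2, 26594 and 31635 in aJ1aJ2 3 and 4, and 32074, 22196 and 26729.7 in aN1aN2 1, 2 and 3. All groups overlapped there (log2 change -0.24, SE 0.18, adjusted p = 0.42 in aN1aN2), and they overlapped in EC3 too (log2 change 0.37, SE 0.28, adjusted p = 0.53).

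Fabp5, a second such carrier, fell in EC2 and EC3. In EC2 it stood at 1259 and 1753 CPM in RW 1 and 2, 1071 and 1105 in aJ1aJ2 3 and 4, and 630.4, 451 and 804 in aN1aN2 1, 2 and 3. The groups were ordered RW, aJ1aJ2, aN1aN2 from high to low without overlap. The log2 change was -1.28 (SE 0.23, adjusted p = 0.0014) in aN1aN2 and -0.46 (SE 0.23, adjusted p = 0.34) in aJ1aJ2, the latter not called. In EC3 the values were 156, 196 and 123 CPM in RW 1, 2 and 3, 97.3 and 176 in aJ1aJ2 3 and 4, and 17.2, 76.7 and 27.9 in aN1aN2 1, 2 and 3, from 2 to 12 UMIs per aN1aN2 sample (log2 change -1.88, SE 0.41, adjusted p = 0.012). Every aN1aN2 sample was below all others, but the call was lost without aN1aN2 1 (-1.57, adjusted p = 0.053), without aN1aN2 3 (-1.64, adjusted p = 0.076), with samples of at least 10 cells (-1.89, adjusted p = 0.06) and with equal cell numbers (-1.61, adjusted p = 0.12). In EC1 Fabp5 stood at 99.1, 123 and 118 CPM in RW 1, 2 and 3, 73.4, 86.9 and 92.2 in aJ1aJ2 1, 3 and 4, and 135, 61.7 and 63.7 in aN1aN2 1, 2 and 3. There aN1aN2 1 was the highest sample of all and the other aN1aN2 samples the lowest (log2 change -0.34, SE 0.22, adjusted p = 0.33), and without aN1aN2 1 the decrease was called at -0.86, adjusted p = 0.014. EC4 gave -0.33 (SE 0.43, adjusted p = 0.65), with overlap.

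Aqp7 is the glycerol channel of the set. In EC2 it stood at 467 and 425 CPM in RW 1 and 2, 337 and 445 in aJ1aJ2 3 and 4, and 180.1, 135 and 94.5 in aN1aN2 1, 2 and 3, which in aN1aN2 is 4 to 14 UMIs per sample. RW and aJ1aJ2 overlapped, and aN1aN2 was 3.11-fold lower than RW (log2 change -1.64, SE 0.29, adjusted p = 0.001), a call that held in each of 16 alternatives. In EC3 it was rare, with 23, 3 and 2 UMIs in RW, 2 and 0 in aJ1aJ2 and 4, 0 and 0 in aN1aN2, and not called.

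Rbp7, the retinol-binding protein, fell in EC1 and EC4. In EC1 the values were 1008, 1022 and 896 CPM in RW 1, 2 and 3, 724, 761 and 916 in aJ1aJ2 1, 3 and 4, and 382, 263 and 306 in aN1aN2 1, 2 and 3. RW and aJ1aJ2 overlapped, and each aN1aN2 sample lay below all of them, 3.06-fold under RW (log2 change -1.62, SE 0.14, adjusted p = 4.1e-08). In EC4 they were 741, 756 and 678 CPM in RW 1, 2 and 3, 522, 543 and 557 in aJ1aJ2 1, 3 and 4, and 284, 213 and 114 in aN1aN2 1, 2 and 3 (log2 change -1.76, SE 0.23, adjusted p = 2.3e-06), with aJ1aJ2 between the other groups without overlap (log2 change -0.41, SE 0.22, adjusted p = 0.52). The EC1 call held in each alternative, and that in EC4 was lost only with equal cell numbers (-0.93, adjusted p = 0.054). In EC3 Rbp7 stood at 373, 94.97 and 224 CPM in RW 1, 2 and 3, 255 and 91.8 in aJ1aJ2 3 and 4, and 68.8, 89.5 and 48.9 in aN1aN2 1, 2 and 3, lowest in aN1aN2 without a call (log2 change -1.73, SE 0.53, adjusted p = 0.068). DESeq2 did call it, as did 3 other alternatives, among them the fit without RW 2 (-2.12, adjusted p = 0.0062). In EC2 the RW samples were far apart, at 112 and 508 CPM, and the other groups lay between them (log2 change 0.05, SE 0.49, adjusted p = 0.97 in aN1aN2). Without RW 1 it was -0.86, adjusted p = 0.14, and without RW 2 it was 1.33, adjusted p = 0.046, so no direction is given. With equal cell numbers a rise was called in aN1aN2 (2.26, adjusted p = 0.00037) and in aJ1aJ2 (2.09, adjusted p = 0.018).

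Both transcription factors fell in EC2. Meox2 stood at 360.5 and 384 CPM in RW 1 and 2, 216 and 277 in aJ1aJ2 3 and 4, and 154, 150.4 and 213 in aN1aN2 1, 2 and 3. RW was highest and aN1aN2 lowest, without overlap, on 9 to 12 UMIs per aN1aN2 sample (log2 change -1.15, SE 0.27, adjusted p = 0.0093). DESeq2 did not call it (-1.14, adjusted p = 0.084), nor did the fits with samples of at least 10 cells (-0.98, adjusted p = 0.077), with equal cell numbers (-0.80, adjusted p = 0.15), without aN1aN2 1 (-1.06, adjusted p = 0.061) or without aN1aN2 2 (-1.06, adjusted p = 0.051). The aJ1aJ2 value, -0.58 (SE 0.22, adjusted p = 0.19), was not called. Tcf15 stood in EC2 at 1111 and 1276 CPM in RW 1 and 2, 1379.9 and 1330.0 in aJ1aJ2 3 and 4, and 785, 752 and 425 in aN1aN2 1, 2 and 3. The aN1aN2 samples lay below all others (log2 change -0.82, SE 0.23, adjusted p = 0.022). That call was lost with samples of at least 10 cells (-0.59, adjusted p = 0.14), with cells of at least 1000 UMIs (-0.62, adjusted p = 0.08), and without RW 2 (-0.75, adjusted p = 0.095) or aN1aN2 3 (-0.62, adjusted p = 0.072), while the difference from aJ1aJ2 (log2 change -1.01, SE 0.22, adjusted p = 0.0059) held in 15 of 15. In EC1 Tcf15 stood at 165, 193 and 419 CPM in RW 1, 2 and 3, 239.6, 293 and 367 in aJ1aJ2 1, 3 and 4, and 343, 287 and 264 in aN1aN2 1, 2 and 3, with RW 3 above every other sample and all groups overlapping (log2 change 0.19, SE 0.26, adjusted p = 0.67). Without RW 3 a rise was called under aJ1aJ2 (0.77, adjusted p = 0.0078) and aN1aN2 (0.75, adjusted p = 0.0031), and without RW 1 the values were -0.027 and -0.046. In EC4 (log2 change 0.45, SE 0.34, adjusted p = 0.4) RW 3 was again the highest of all samples, and without it a rise in aN1aN2 was called (1.52, adjusted p = 0.0017). In EC3 the value was 0.07 (SE 0.27, adjusted p = 0.93).

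**Figure D4:**
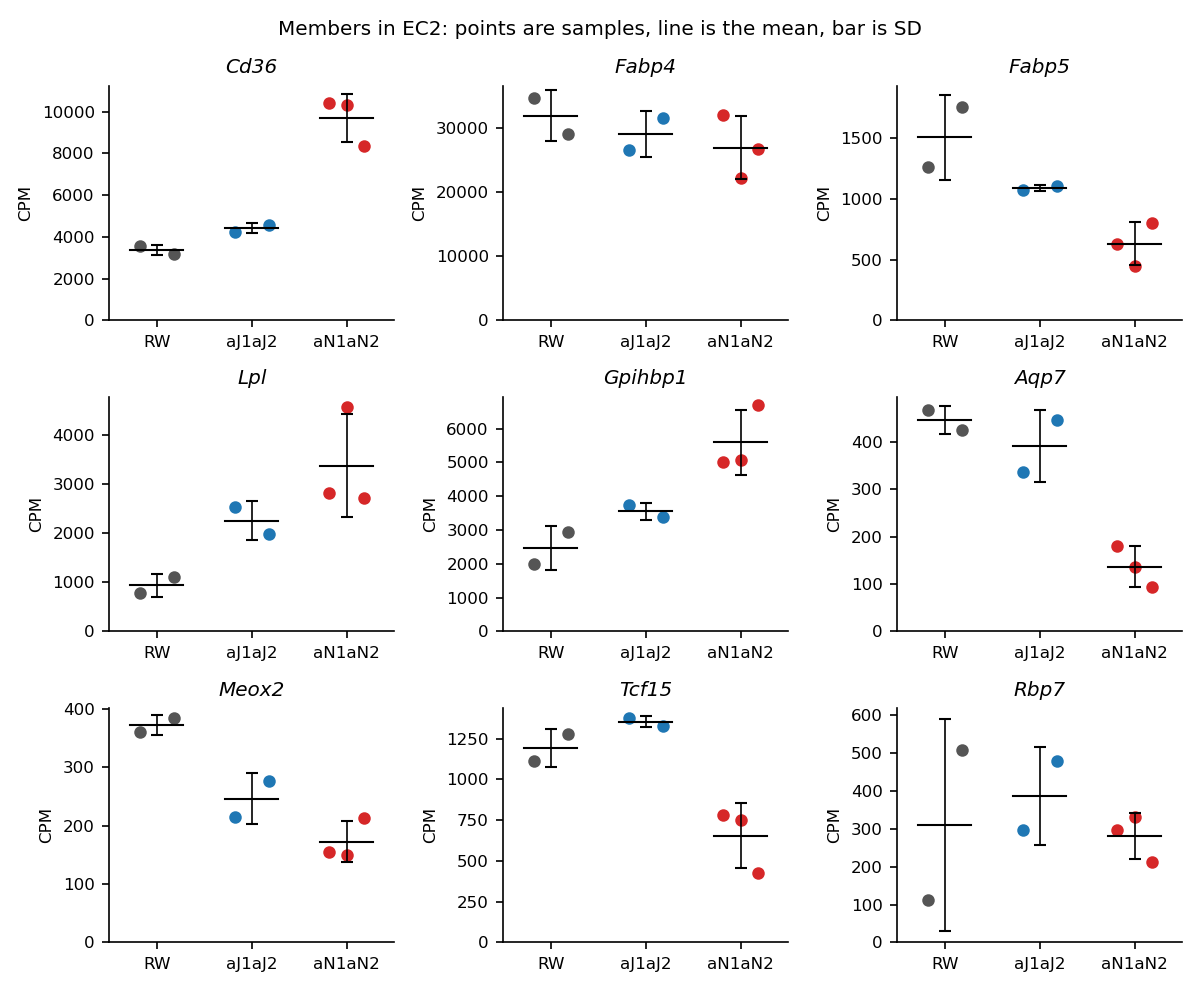
CPM in EC2 by group for all 9 genes; each point is a sample with at least 20 cells (RW 2, aJ1aJ2 2 and aN1aN2 3 samples), the line is the mean and the bar the SD. Cd36, Lpl and Gpihbp1 are highest and Aqp7, Fabp5, Meox2 and Tcf15 lowest in aN1aN2.

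The EC2 response differed from that of EC1 for 2 of the 9 genes under aN1aN2, with 0.864% of all genes called. For Cd36 the difference of log2 changes was -1.67 (SE 0.34, adjusted p = 0.0051), a smaller rise in EC2, where the control level was already high. It was lost without RW 2 (-1.23, adjusted p = 0.11). For Tcf15 it was -1.57 (SE 0.28, adjusted p = 0.0013), with RW 3 (15 cells) and aJ1aJ2 1 (16 cells) out of EC2. With samples of at least 10 cells, which adds both, it was -1.04, adjusted p = 0.33, and not called. Under aJ1aJ2 0 of 9 differed in EC2 beside 0.048% of all genes, with 2 at an unadjusted p under 0.05, Gpihbp1 at 1.24 (SE 0.28, adjusted p = 0.08) and Tcf15 at -0.65 (SE 0.26, adjusted p = 0.59). Only edgeR was run on these differences. In EC3 2 of 9 differed from EC1 under aN1aN2 beside 3.77%, Lpl as above and Gpihbp1 with a larger rise by 0.92 (SE 0.27, adjusted p = 0.042), which held in only 2 of 11 alternatives and ranged from 0.64 to 1.31 over them, lost without each of RW 2, RW 3, aJ1aJ2 3, aJ1aJ2 4 and the 3 aN1aN2 samples. Under aJ1aJ2 1 of 9 differed, Lpl, beside 0.096%. The Cd36 response in EC3 against EC1 was -0.17 (SE 0.31, adjusted p = 0.88). Between EC4 and EC1 no difference was called for any of the 9 under aJ1aJ2 or aN1aN2, beside 0.0% and 0.032% of all genes. Aqp7 and Meox2 had SE of 2.22 to 4.99 there. They were too scarce in EC1, the reference of all these differences, for the lack of a call to carry weight, and Lpl was too scarce in EC4 to be tested in that label. At an unadjusted p under 0.05 there were 2 under aN1aN2, Lpl at -1.62 (SE 0.79, adjusted p = 0.57) and Gpihbp1 at 0.52 (SE 0.24, adjusted p = 0.55).

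EC1, EC2 and EC3 cells were shallower in aN1aN2 than in RW: the median UMIs per cell of a sample were 4679 to 4968 in RW, 3473 to 4071 in aJ1aJ2 and 2518 to 3534 in aN1aN2 for EC1. In EC4 they overlapped, at 880.0 to 1159.5 in RW and 939 to 1048 in aN1aN2. Shares of cells with a UMI were therefore taken after thinning each cell to 1000 UMIs. That left out 1 of 661 EC1 cells in RW and none in the other groups, 7 of 81, 32 of 236 and 19 of 92 EC2 cells in RW, aJ1aJ2 and aN1aN2, and 142 of 268, 132 of 336 and 219 of 442 EC4 cells. Cd36 was seen in 4.81%, 5.13% and 25.8% of EC1 cells (mean over samples of RW, aJ1aJ2 and aN1aN2), and in 13.8%, 16.1% and 42.4% without thinning. In EC2 the thinned shares were 82.6%, 93.4% and 100%, in EC3 18.2%, 15.1% and 60.3% and in EC4 6.41%, 10.2% and 22.1%. At 1000 UMIs per cell, then, the mean share of cells with Cd36 was larger under receptor blockade in each label, but in EC2 it met its ceiling. There all 73 aN1aN2 cells deep enough held it (98.6% as a mean over samples without thinning), and an aJ1aJ2 sample also reached 100%. With EC2 cells thinned to 2000 UMIs the shares were 91.0%, 100% and 100%, the last from 29 cells, so the blockades were not apart. As a background, the thinned share was 0%, 0.321% and 0% in F, the label with fibroblast markers, and 0.970%, 0.640% and 0.844% in Th1, the label with thyrocyte markers, with medians of 5632.5 and 12553 UMIs per cell against 3994 in EC1.

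Gpihbp1 was seen in 61.9%, 58.7% and 91.5% of EC1 cells in the same order, and in 90.4%, 90.2% and 98.3% without thinning. Its EC3 shares were 8.88%, 11.8% and 27.9% and its EC4 shares 52.3%, 52.9% and 87.4%, while 0%, 0.321% and 1.28% of F cells and 1.58%, 2.49% and 1.90% of Th1 cells held it. For Lpl the share went from 39.5% of EC2 cells in RW to 79.7% in aJ1aJ2 and 83.4% in aN1aN2 (71.9%, 86.7% and 82.6% without thinning). Rbp7 was seen in 45.0%, 39.9% and 20.2% of EC1 cells and 29.6%, 21.4% and 10.4% of EC4 cells (78.9%, 66.8% and 40.8% and 39.7%, 26.5% and 10.6% without thinning). In EC2, Fabp5 was seen in 68.7%, 42.2% and 23.7% and Aqp7 in 29.1%, 30.3% and 7.91% of cells (87.0%, 61.4% and 32.3% and 58.3%, 58.8% and 17.8% without thinning). As a background, the thinned shares in Th1 were 0%, 0.885% and 0.521% for Lpl, 1.18%, 0% and 0.211% for Rbp7, 0.806%, 1.06% and 0.260% for Fabp5 and 0% in each group for Aqp7.

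**Figure D5:**
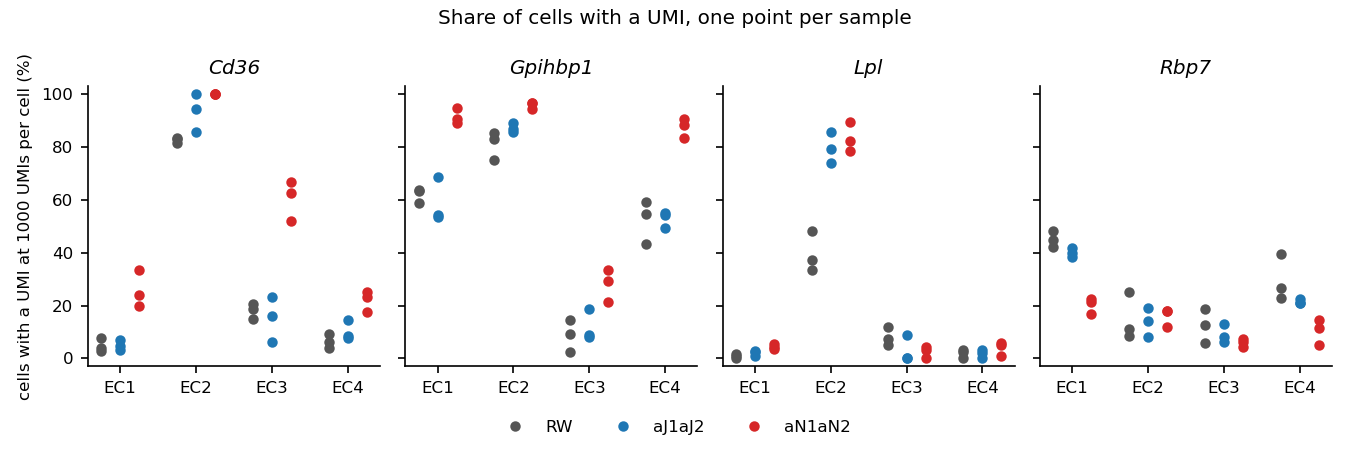
Percentage of cells with a UMI after thinning each cell to 1000 UMIs (vertical axis) for Cd36, Gpihbp1, Lpl and Rbp7 in the 4 EC labels; each point is a sample, coloured by group. In EC1 the aN1aN2 samples reach 20.0% to 33.3% for Cd36, above all RW and aJ1aJ2 samples.

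With EC1 to EC4 summed, so that the makeup of the endothelium also counts, 3 genes rose and 1 fell of 9 in aN1aN2 against RW, beside 19.7% of all genes: Cd36 at 2.69 (SE 0.35, adjusted p = 9.1e-05), Gpihbp1 at 1.39 (SE 0.09, adjusted p = 2.2e-07), Lpl at 2.31 (SE 0.35, adjusted p = 0.00031) and Rbp7 at -1.69 (SE 0.15, adjusted p = 3.6e-06). In aJ1aJ2 Lpl alone was called of 9, at 2.03 (SE 0.34, adjusted p = 0.011), beside 1.16%. That call was lost without aJ1aJ2 3 (1.88, adjusted p = 0.077), without aJ1aJ2 4 (1.83, adjusted p = 0.067), in a fit of those groups alone (2.03, adjusted p = 0.056) and with equal cell numbers (0.75, adjusted p = 0.76). Between the blockades 2 were higher and 1 lower in aN1aN2, beside 13.5%. A sample held 15 to 37 EC2 cells in RW, 16 to 145 in aJ1aJ2 and 23 to 38 in aN1aN2, and the summed values carry such differences in makeup.

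Outside the endothelium Meox2 fell in F under receptor blockade, and Fabp4 there was highest in that group. Fabp4 in F stood at 3.85, 7.54 and 9.50 CPM in RW 1, 2 and 3, 9.81, 19.3 and 43.4 in aJ1aJ2 1, 3 and 4, and 82.0, 166 and 199 in aN1aN2 1, 2 and 3, from 1 to 3 UMIs per RW sample. The aN1aN2 samples lay above the others, and aJ1aJ2 above RW. Fabp4 passed the filter on low counts in F only through the aN1aN2 samples, so its values there are a description with no test. The thinned share of F cells with Fabp4 was 0%, 2.25% and 13.1% in RW, aJ1aJ2 and aN1aN2 (5.30%, 9.60% and 18.6% without thinning, 109 of 120, 269 of 297 and 106 of 121 cells deep enough), against 1.55%, 3.13% and 4.47% of Th1 cells. In F the summed endothelial markers ranged over 14.1 to 30.5 CPM among RW samples and 16.9 to 46.7 among aN1aN2 samples, and fat cell markers over 2.31 to 10.5 and 0 to 9.34. Erythroid markers ranged over 95.9 to 240.4 CPM among RW samples of F and 716 to 34500.2 among aN1aN2 samples, pericyte and smooth muscle markers over 139 to 285 and 103 to 113, and Schwann markers over 0 to 4.62 and 5.64 to 18.7, and their part in the F values was not tested. In SM Fabp4 stood at 2884 CPM in RW 3, 6284 and 5188 in aJ1aJ2 3 and 4, and 14727, 16806 and 17281 in aN1aN2 1, 2 and 3. With 1 RW sample there was no test against RW, and aN1aN2 exceeded aJ1aJ2 by 1.5 (SE 0.28, adjusted p = 0.00039). Meox2 in F stood at 208, 123 and 176 CPM in RW 1, 2 and 3, 137, 175 and 155 in aJ1aJ2 1, 3 and 4, and 31.5, 73.0 and 21.0 in aN1aN2 1, 2 and 3 and fell in aN1aN2 without overlap (log2 change -1.89, SE 0.36, adjusted p = 0.00092).

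In Th1, the label with thyrocyte markers, Cd36 stood at 19.5, 8.10 and 7.80 CPM in RW 1, 2 and 3, 2.15, 10.7 and 32.1 in aJ1aJ2 1, 3 and 4, and 146, 40.0 and 21.8 in aN1aN2 1, 2 and 3, with aN1aN2 1 far above the rest. It was called in aN1aN2 (log2 change 2.58, SE 0.61, adjusted p = 0.0041), but without aN1aN2 1 it was 1.39, adjusted p = 0.12, and with equal cell numbers it was 0.24, adjusted p = 0.83. DESeq2 gave a similar value without a call (2.54, adjusted p = 0.051). Fabp5 stood at 17.5, 27.7 and 16.8 CPM in RW 1, 2 and 3, 8.60, 14.4 and 8.17 in aJ1aJ2 1, 3 and 4, and 3.84, 5.45 and 6.04 in aN1aN2 1, 2 and 3, lower in each aN1aN2 sample than in any other (log2 change -1.98, SE 0.35, adjusted p = 0.00045), a call that held in each of 19 alternatives. In Th1 the summed endothelial markers ranged over 317 to 472 CPM among RW samples and 79.1 to 330.0 among aN1aN2 samples, parathyroid markers over 6.00 to 37.3 and 96.4 to 236, and venous markers over 52.2 to 59.95 and 71.0 to 105, and their part in these values was not tested. Over the labels other than EC, 4 of 13 pairs of gene and label were called in aN1aN2 against RW, beside 26.4% of all such pairs, a share near the background, in a count that holds Fabp4 in F. In F 1 of the other 2 tested was called, Meox2, beside 19.8% of its genes, and in Th1 2 of 7, beside 34.4%. In aJ1aJ2 edgeR called 0 of 17, with 5 at an unadjusted p under 0.05 and 0 by DESeq2, beside 0.375%. Between the blockades 6 of 19 pairs were called, beside 15.9%: 2 in F, Fabp4 among them (16.0% of its genes), 3 in Th1 (22.3%) and 1 in SM (4.05%).

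Around the 9 genes, 54 others of the pathway were listed by role. In aN1aN2 against RW, 8 rose and 10 fell of 44 tested in EC1, 2 rose and 6 fell of 22 in EC2, 3 rose and 2 fell of 32 in EC3, and 4 rose and 4 fell of 20 in EC4, so called genes went in both directions. The shares of all genes called in this comparison were 17.8%, 15.5%, 5.91% and 21.1% in EC1 to EC4, and the counts by role are set against the same shares. Angptl4 stands in both the lipolysis and the oxidation list and counts once in the sums. The counts hold Angptl4 in EC1 and EC2, Klf15 in EC1 and Pdk4 in EC3, which RW samples were too low to carry past the filter on low counts. Pathway values below are means ± SD of aN1aN2 first and RW second unless aJ1aJ2 is named, with 3 samples a group, but 2 for RW and aJ1aJ2 in EC2. Median log2 changes over those tested of the 54 were 0.05, -0.27, -0.15 and -0.26 in EC1 to EC4, beside -0.01, -0.02, -0.0038 and -0.02 over all genes. In aJ1aJ2 0 rose and 1 fell in EC1, 1 rose in EC2, 0 of 32 were called in EC3 (2 at an unadjusted p under 0.05, 0 by DESeq2) and 1 rose in EC4, beside 1.43%, 1.91%, 0.0618% and 0.903% of all genes.

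Of 6 lipid storage and release genes tested in EC1, 3 rose and 2 fell (median 0.74). Pnpla2, the lipase that starts the breakdown of stored triglyceride, was among the 5 largest changes in EC2 (680.0 ± 124 against 115 ± 28.5 CPM, log2 change 2.61, adjusted p = 3.1e-05), EC3 (398 ± 88.0 against 145 ± 33.3 CPM, log2 change 1.45, adjusted p = 0.0016) and EC4 (710.3 ± 70.2 against 144 ± 66.7 CPM, log2 change 2.22, adjusted p = 2.7e-07). It rose in EC1 too (482 ± 24.6 against 89.9 ± 25.7 CPM, log2 change 2.40, adjusted p = 5.5e-09), a value named after it was seen. It was also the 1 called gene of EC2 in aJ1aJ2 (259.6 ± 42.7 against 115 ± 28.5 CPM, log2 change 1.24, adjusted p = 0.04), where DESeq2 called 0 of 22. Lipe, the next lipase of the same chain, rose in EC3 (88.6 ± 6.43 against 21.2 ± 14.1 CPM, log2 change 2.13, adjusted p = 0.0065) and EC4 (372 ± 44.0 against 179 ± 34.1 CPM, log2 change 1.10, adjusted p = 0.0014). Mgll, which completes it, fell in EC4 (565 ± 147 against 1086 ± 93.2 CPM, log2 change -0.92, adjusted p = 0.0026). Lipe was also called higher in EC1, and Mgll was also called lower in EC1 and EC2. Hilpda, an inhibitor of Pnpla2, was the 1 gene called in EC1 of aJ1aJ2 (31.2 ± 4.52 against 70.2 ± 1.66 CPM, log2 change -1.21, adjusted p = 0.0011). Under aN1aN2 Hilpda was called lower in EC1 as well.

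Of lipoprotein lipolysis genes, 1 rose and 1 fell of 6 in EC1 (median -0.17). Angptl4, a secreted inhibitor of lipoprotein lipase, had 47 UMIs against 1, a ratio of 214 with a 95% counting interval from 36.5 to 8615 in EC1 of aN1aN2 against RW. In EC2 it stood at 198 ± 35.8 against 22.2 ± 2.04 CPM, log2 change 3.06, on 36 UMIs against 6. Its RW levels in both labels were too low to pass the filter on low counts, so these values are a description with no test. Lpl, its target, rose in both labels as well. Apoe, a lipoprotein ligand, was the 1 called gene of EC4 in aJ1aJ2 (953 ± 235 against 441 ± 157 CPM, log2 change 1.12, adjusted p = 0.021). Under aN1aN2 Apoe was called higher in EC4 as well. Of transport and activation genes, 2 rose and 2 fell of 10 in EC1 (median 0.15) and 3 fell of 4 in EC2 (median -0.81). Cavin2, a coat protein of caveolae, fell in EC2 (975 ± 247 against 2453 ± 67.4 CPM, log2 change -1.33, adjusted p = 0.00041) and was also called lower in EC4. Acsl3, which activates fatty acids, had 2 UMIs against 72, a ratio of 0.126 with a 95% counting interval from 0.0150 to 0.473 in EC1 (adjusted p = 0.011). Of oxidation genes 2 rose and none fell of 10 in EC1 (median 0.10). In EC3 the 1 that rose of 8 was Pdk4, a kinase that spares glucose (37.5 ± 10.2 against 2.68 ± 2.32 CPM, log2 change 3.55). Its RW level too was below the filter on low counts, so its values are a description with no test.

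Of the regulators, 1 rose and 5 fell of 13 in EC1 (median -0.06). Nrp1, Aplnr and Dll4 were among the 5 that fell there. Klf15, a transcription factor of lipid and amino acid use, had 17 UMIs against 2 in EC1, a ratio of 38.6 with a 95% counting interval from 9.17 to 345. Its RW level was too low to pass the filter on low counts, so its values are a description with no test. Hey1, a direct Notch target, fell in EC1 (3.78 ± 2.25 against 30.2 ± 12.9 CPM, log2 change -3.10, adjusted p = 0.00082) and EC3 (36.1 ± 29.9 against 102 ± 27.6 CPM, log2 change -1.51, adjusted p = 0.049), and the Notch ligand Dll4 fell in EC3 (19.6 ± 5.94 against 98.8 ± 6.34 CPM, log2 change -2.34, adjusted p = 0.0017). Nrp1, a co-receptor for Vegfb, a factor known to act on endothelial lipid uptake, fell in EC2 (453 ± 180.5 against 1156 ± 214 CPM, log2 change -1.28, adjusted p = 0.0028) and EC4 (673 ± 63.8 against 2754 ± 184 CPM, log2 change -2.03, adjusted p = 1.3e-09). Aplnr, the apelin receptor, fell in EC2 (39.3 ± 55.6 against 291 ± 132 CPM, log2 change -2.65, adjusted p = 0.0048) and EC4 (81.4 ± 38.7 against 482 ± 174 CPM, log2 change -2.53, adjusted p = 1.1e-06). The called regulators were lower in aN1aN2 than in RW in each EC label except Klf15 in EC1. Between the blockades, 16 of 44, 7 of 22, 2 of 32 and 7 of 20 pathway genes were called in EC1 to EC4, beside 13.5%, 10.5%, 1.27% and 17.2% of all genes.

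For each gene, the genes with the most similar pattern were sought over 105 sums of a sample and a label, among 11171 genes, by Pearson r of log2(CPM + 1). Sums of 1 library share depth and of 1 label share cell type, so r describes mostly which labels hold a gene. Cd36 was most like Depp1 (0.80), Esam (0.80) and Cd93 (0.79), Fabp4 most like Cav1 (0.87), Esam (0.87) and Tinagl1 (0.87), and Gpihbp1 most like Robo4 (0.93), Adgrl4 (0.92) and Mcf2l (0.92). Rbp7 was most like Ccm2l (0.92), Btnl9 (0.91) and Emcn (0.91). Tcf15 had Notch4 (0.91) and Esam (0.90) among its 3 most similar genes. Aqp7 was most like Timp4 (0.74), Samd5 (0.74) and C1qtnf9 (0.73), and Fabp5 most like Ggta1 (0.80), Map4 (0.78) and Igtp (0.78). Lpl and Meox2, both high in F, were most like Fcgrt (0.77), Eps8 (0.76) and Aspn (0.75) and Ecm2 (0.85), Pdgfrb (0.82) and Pcdh19 (0.82). By Spearman rank, 13 of the 27 neighbours were again among the top 3.

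Markers of other cells moved with the groups in places. In EC1 the summed endothelial markers ranged over 11215 to 11776 CPM among RW samples and 7259 to 7573 among aN1aN2 samples, thyrocyte markers stood at 693 to 964 and 1319 to 1933, and macrophage markers at 72.5 to 186 and 5.34 to 9.49, with 22.5 to 42.5 among aJ1aJ2 samples. Arterial markers in EC1 ranged over 289 to 314 CPM among RW samples and 121 to 189.6 among aN1aN2 samples, parathyroid markers over 38.9 to 71.9 and 180.4 to 286, C cell markers over 26.6 to 62.8 and 119 to 171, and venous markers over 18.9 to 27.5 and 44.3 to 79.95. Fat cell markers stood at 0.75 to 1.95 CPM among RW samples and had 0 UMIs in aN1aN2 cells. The part of these markers in the EC1 results was not tested. In EC2 the fat cell markers ranged over 8.57 to 166 CPM among RW samples and 19.5 to 75.1 among aN1aN2 samples. A fit without the cells that held a UMI of a fat cell marker other than Cfd kept 1 call in aJ1aJ2 and 7 in aN1aN2 in EC2. Cells that held only Cfd stayed in that fit. Pericyte and smooth muscle markers in EC2 stood at 583 to 2017, 1779 to 2149 and 1189.6 to 7067 CPM in the 3 groups, and skeletal muscle markers at 326 to 475, 486 to 575 and 547 to 837. Endothelial markers in EC2 ranged over 5666 to 6529 CPM among RW samples and 4497 to 5049.7 among aN1aN2 samples, erythroid markers over 334 to 408 and 987 to 1469, and parathyroid markers over 25.7 to 109 and 136 to 352. Thyrocyte markers there stood at 643 to 645 and 848 to 1577, and venous markers at 197 to 233 and 328 to 389. The part of these markers in the EC2 results was not tested. In EC3 lymphatic markers ranged over 1782 to 3376 CPM among RW samples and 654 to 1485 among aN1aN2 samples, and pericyte and smooth muscle markers over 2668 to 4315 and 753 to 958. Thyrocyte markers stood at 270.0 to 6087 and 461 to 634, endothelial markers at 3031 to 4318 and 4771 to 5965, and erythroid markers at 96.9 to 232 and 596 to 965. Venous markers in EC3 ranged over 502 to 719.8 CPM among RW samples and 806 to 1733 among aN1aN2 samples, and parathyroid markers over 20.9 to 42.9 and 59.5 to 261. Fibroblast markers stood lower there in aN1aN2, at 45.9 to 721 against 18.2 to 38.7, while macrophage markers (5.10 to 321 CPM in RW) and Schwann markers (1.95 to 22.8) had 0 UMIs in aN1aN2. Among aJ1aJ2 samples of EC3, pericyte and smooth muscle markers ranged over 1047 to 1434 CPM and venous markers over 879.6 to 1070.0, neither overlapping RW. The part of these markers in the EC3 results was not tested. In EC4 endothelial markers ranged over 10999.6 to 11789.7 CPM among RW samples and 8516 to 8847 among aN1aN2 samples, and arterial markers over 344 to 434 and 174 to 215. Erythroid markers there stood at 179 to 855 and 1375 to 1914, C cell markers at 57.4 to 86.7 and 184 to 456, and parathyroid markers at 24.8 to 327 and 116 to 3744, the last overlapping between groups. Macrophage markers in EC4 ranged over 24.8 to 100.5 CPM among RW samples and 0 to 8.28 among aN1aN2 samples, pericyte and smooth muscle markers over 46.8 to 61.9 and 64.5 to 199, and Schwann markers over 7.80 to 37.2 among RW samples with 0 UMIs in aN1aN2. Their part in the EC4 results was not tested. How the labels were assigned is not given in the sources used here.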

How the data were processed

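Thyroid cells of 9 samples were profiled with the 10x Genomics 3' v2 kit. The authors deposited raw UMI counts per gene and cell with their cell labels. The submitters' processing notes name Cell Ranger and GRCm38, and the versions and the labelling method are not given in the sources used here. Symbols and coordinates came from GENCODE vM21 (52403 of 52636 identifiers matched). In 2619 annotation lines a comma had shifted the columns, which was corrected. No doublets were called, and none are stated to have been removed.

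Counts were summed per sample and label (at least 20 cells) and tested with edgeR 4.0.16 in R 4.3.3 (filterByExpr, TMM, quasi-likelihood test, 3 groups in 1 fit). SE is the absolute log2 change divided by the square root of F. CPM in the comparisons are per TMM-scaled total of the genes that passed the filter, and levels across labels and marker sums per total of all genes. DESeq2 1.42.0, other filters, cell minimums, cell subsets, blocks and left-out samples were alternatives. Scripts were tested on simulated data. The rule for the 9 genes lists names and reads no value, but the set, the pathway and marker lists and the tests were chosen with earlier results of these data known. Named beside the 9 were, per label and comparison, at most 5 called pathway genes with the largest log2 change, and the 3 genes of highest Pearson r (mean of at least 5 CPM). Of these, 2 genes are not reported here. Intervals cover counting error only.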

Additional observations from a re-analysis of the deposited data

Results flagged for a closer look

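In 5 cases the response of a gene to an antibody differed between 2 endothelial labels by a test of the difference itself (edgeR, a term for each sample, adjusted over all genes). Under aN1aN2 the log2 change in EC2 less that in EC1 was -1.67 (SE 0.34, adjusted p = 0.0051) for Cd36 and -1.57 (SE 0.28, adjusted p = 0.0013) for Tcf15. The Tcf15 value leaves out the EC2 cells of RW 3, and with samples of at least 10 cells it was -1.04, adjusted p = 0.33. Cd36 rose in both labels, and Tcf15 passed the test, with a fall, in EC2. Under aN1aN2 the log2 change in EC3 less that in EC1 was -3.06 (SE 0.46, adjusted p = 2.1e-05) for Lpl and 0.92 (SE 0.27, adjusted p = 0.042) for Gpihbp1. Under aJ1aJ2 that difference was -2.19 (SE 0.43, adjusted p = 0.018) for Lpl. Lpl thus rose in EC1 under both blockades with no call in EC3.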

How the results depend on the processing

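The counts of genes called in aN1aN2 against RW were 5, 7, 3 and 4 in EC1 to EC4, and no alternative that kept all samples moved them by over 1.5 times. Leaving out 1 sample gave 5 to 6, 6 to 7, 2 to 4 and 3 to 5. For aJ1aJ2 against RW the count of 1 in EC1 became 2 without the low-count filter and 0 with the same number of cells per sample, and leaving out 1 sample gave 1 to 3 (2 without RW 3, 3 without aJ1aJ2 1). In EC2 the count of 1 became 0 with at least 10 cells per sample, and leaving out 1 sample gave 0 to 2 (0 without RW 1, 2 without RW 2). In EC3 and EC4 it was 0 in each such fit. Between the blockades the count of 2 in EC3 became 4 with no filter, 1 with at least 10 cells and 1 with equal cell numbers, and 1 to 2 with a sample left out (1 without aJ1aJ2 3 or 4). In EC2 the 5 became 3 to 5, with 3 without aN1aN2 1 or 2, in EC1 the 5 became 4 to 5, and in EC4 the 4 stayed at 4 with a sample left out and became 3 with equal cell numbers, where Rbp7 was -0.89, adjusted p = 0.083.

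With EC1 to EC4 summed, the 1 gene of aJ1aJ2 became 3 with no filter, 0 in a fit of 2 groups, 0 with equal cell numbers, 2 with the runs of titles as a block and 0 to 2 with a sample left out (2 without aJ1aJ2 1, 0 without aJ1aJ2 3 or 4). The 4 of aN1aN2 became 7 with no filter and 4 to 5 with a sample left out. Between the blockades 3 became 6 with no filter, 5 in a fit of 2 groups, and 3 to 5 with a sample left out (5 without RW 3 or aJ1aJ2 1). Over the other labels, aJ1aJ2 went from 0 to 6 with no filter and to 0 to 2 with a sample left out (1 without RW 2, 2 without RW 3). There aN1aN2 went from 4 to 9 with no filter, 2 with at least 50 cells and 4 to 5 with a sample left out, and the difference between the blockades from 6 to 3 by DESeq2, 3 with at least 50 cells and 4 to 7 with a sample left out. The 5 differences between labels became 2 with at least 10 cells and 3 to 5 with a sample left out (3 without aJ1aJ2 3 or 4). Without RW 2 the count was again 5, but only 2 of these were among those reported. Where a fit does not itself use fewer samples or cells, the cause was not tested.

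Replicate numbers 1 and 2 are shared by RW and aN1aN2. The deviations of same-numbered samples correlated by 0.000258 and 0.0170 in EC1, -0.0559 and 0.149 in EC2, 0.0337 and -0.0803 in EC3, and 0.0085 and -0.0328 in EC4. These values rest on 2 pairs of samples per label, too few to decide whether same-numbered samples share more than a number. A fit with these numbers as a replicate block used only RW 1, RW 2, aN1aN2 1 and aN1aN2 2. Its counts were 6, 6, 4 and 5 in EC1 to EC4, 9 with the labels summed and 7 over the other labels. Under aN1aN2 that fit lost the call of Tcf15 in EC2 (-0.61, adjusted p = 0.075) and added those of Tcf15 in EC1 (0.82, adjusted p = 1.5e-06) and EC4 (1.62, adjusted p = 8.8e-05) and Rbp7 in EC3 (-1.27, adjusted p = 0.044). With no block, leaving out RW 3 alone gave Tcf15 0.75 in EC1 and 1.52 in EC4, and leaving out aN1aN2 3 alone gave -0.62 in EC2. The part of the block itself, apart from the samples left out, was not tested.

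Signs turned in 17 single alternatives, for values that were not called as reported. Rbp7 in EC2 under aN1aN2 was -0.092 by DESeq2, -0.045 with no filter, -1.03 with at least 10 cells, -0.021 without cells with a fat cell marker other than Cfd, -0.86 without RW 1, -0.0061 without aJ1aJ2 4 and -0.061 without aN1aN2 2. Under aJ1aJ2 it was -0.73 with at least 10 cells and -0.38 without RW 1. Meox2 in EC2 under aJ1aJ2 was 0.094 with equal cell numbers. Over the fits without 1 sample, Rbp7 in EC2 ran from -0.86 to 1.33 under aN1aN2 and from -0.38 to 1.80 under aJ1aJ2, the highest without RW 2. Cd36 in EC1 under aJ1aJ2 ran from -0.28 to 0.95, the lowest without aJ1aJ2 3. Tcf15 in EC1 ran from -0.027 to 0.77 under aJ1aJ2 and from -0.046 to 0.75 under aN1aN2, and in EC4 from -0.0077 to 1.52 under aN1aN2, each lowest without RW 1. Tcf15 in EC3 under aN1aN2 ran from -0.14 to 0.27 and was -0.12 without RW 2. Fabp5 in EC4 under aN1aN2 ran from -0.49 to 0.046, the highest without RW 1. Aqp7 and Meox2 had too few UMIs to be tested in EC1 and EC4, as had Lpl in EC4.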
